A study of Danio rerio with 8 samples.

Results

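Whole zebrafish embryos lacking the retinoic acid degrading enzymes Cyp26a1 and Cyp26c1 (Cyp26-deficient) were compared with wild-type (WT) control embryos, both of the AB/TU strain and collected at 48 hours post-fertilization (hpf). Each condition was measured by 1 RNA-seq library, so 2 of the series' 8 libraries were compared. The method section lists morpholino oligonucleotides (MOs) against cyp26a1 and cyp26c1, but does not say directly that these whole embryos were injected, and the number of embryos per library is not given in the sources used here. The genes described averaged 10 or more normalized counts across the 4 whole-embryo libraries, which also include a crg mutant library and its WT control, and 19888 of the 31172 genes listed met this limit. A normalized count is a library's expected count of a gene divided by that library's size factor. The limit uses the Cyp26-deficient library too, so a gene low in the other libraries can meet it through its level there. With 1 library per condition no difference has a replicate check, no test across genes was made, and the 95% exact (Clopper-Pearson) intervals, given in parentheses after log2 fold changes, cover counting error only.

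Retinoic acid (RA) is made from vitamin A by retinol and retinal dehydrogenases and binds nuclear receptors of the RAR and RXR families, which switch target genes on or off. Cyp26 enzymes oxidize RA and so keep it out of tissues such as the anterior hindbrain, the tail bud and the pharyngeal region. Excess RA in vertebrate embryos is known to shift positional identity in the neural tube and to disturb the heart, the face, the eye and the fins. The cyp26a1 gene is itself a direct RA target in vertebrates, as are dhrs3 and the anterior Hox genes.

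Of the genes tested, 697 (3.50%) stood more than 2-fold higher in Cyp26-deficient embryos than in WT embryos, and 516 (2.59%) more than 2-fold lower. These are called raised and lowered, and the counts given for lists are to be read beside these shares. The median log2 fold change over all genes tested was -0.034, with 5% of genes below -0.77 and 5% above 0.86. Changes of more than 8-fold were found for 14 raised and 22 lowered genes. The whole counting interval lay past 2-fold for 196 of the raised and 220 of the lowered genes. Raised and lowered genes, whatever their interval, were more frequent at low counts. Of the genes with a mean of 10 to 20, 10.2% were raised and 6.22% lowered. Of those with a mean of at least 1000, 1.03% were raised and 2.02% lowered. Gene counts summed to 30257690 in the Cyp26-deficient library and 23462287 in the WT library. Scaling by these totals in place of the median-of-ratios size factors shifted the median of all genes by 0.25 on the log2 scale and gave 1345 raised and 293 lowered genes, so that 82.1% of the genes past 2-fold were raised in place of 57.5%. Counted relative to that shifted median, 742 were raised and 478 lowered.

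**Figure D1:**
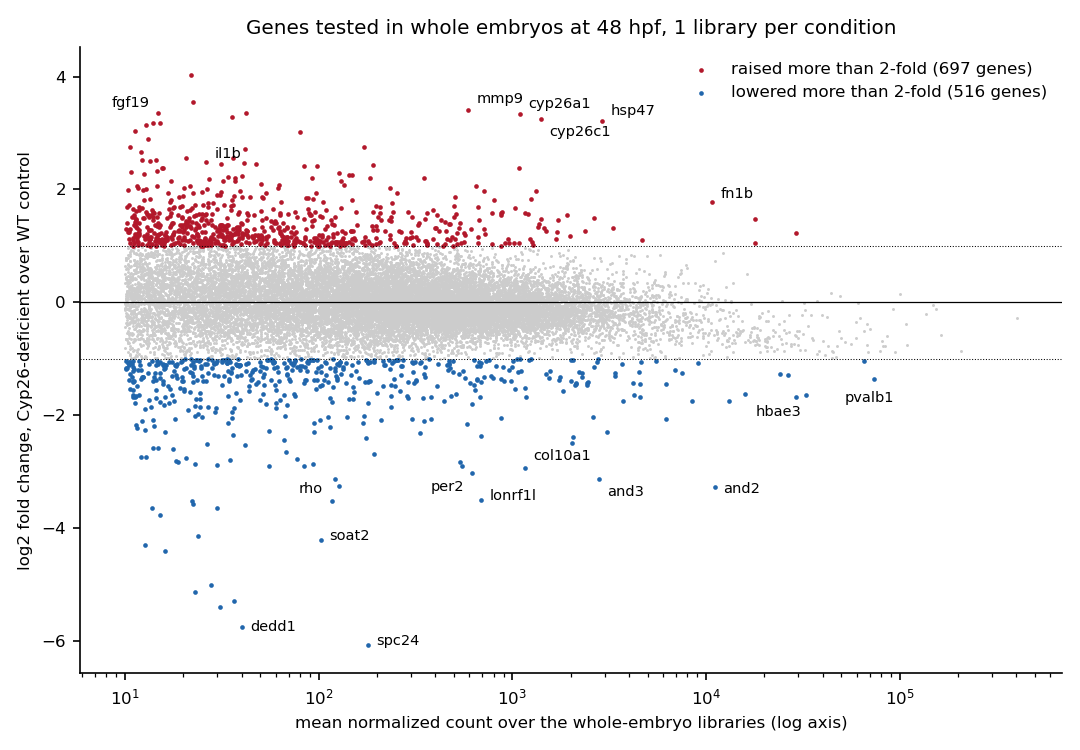
Log2 fold change of each gene tested (Cyp26-deficient over WT control, vertical axis) against its mean normalized count over the whole-embryo libraries (horizontal log axis), with 697 genes raised and 516 lowered more than 2-fold (dotted lines). At high levels cyp26a1, cyp26c1, mmp9 and hsp47 stand above 3, and and2, and3, per2 and lonrf1l stand below -3.

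A WT control library was also at hand from the crg comparison (crg is a mutant allele of hdac1), of the same age and strain. The column called crg-plus was read as that control from its name, since no label pairs column names with samples word for word. The paper sequenced crg mutants beside WT siblings, and some of its cardiomyocyte counts group wild-type with heterozygous siblings. Whether this control library holds heterozygotes is not given in the sources used here. Set against that library in place of their own control, 233 of the 697 raised genes (33.4%) and 313 of the 516 lowered genes (60.7%) were still past 2-fold in the same direction. The log2 fold change had the opposite sign for 192 raised and 105 lowered genes. Over all 19888 genes tested, 2747 were more than 2-fold higher and 1863 more than 2-fold lower than in that library. List counts with the other control are to be read beside these totals. Both sets of values use the same Cyp26-deficient library, and the crg pair has its own libraries and depth, so a difference between the WT controls cannot be told apart from a difference between the pairs. Statements on genes and lists therefore hold against the library's own WT control, and values against the WT control of the crg comparison are given beside many but not all of them. The plot of list medians shows both controls for the lists it draws, and where no second value is printed none is implied. In whole embryos, moreover, fewer cells of a type and less RNA per cell cannot be told apart.

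Genes of RA breakdown showed some of the largest increases of the whole comparison. cyp26a1 (ENSDARG00000033999, chromosome 12, 9708963 to 9712555, minus strand, Zv9) had 3113 normalized counts in Cyp26-deficient embryos, against 308 in WT embryos, a log2 fold change of 3.33 (95% interval 3.19 to 3.48). cyp26c1 (ENSDARG00000056029, chromosome 17, 19353009 to 19365481, minus strand) had 4156 in Cyp26-deficient embryos, against 439 in WT embryos, or 3.24 (3.12 to 3.37). The transcripts of both genes lost in these embryos were thus raised, and RNA levels do not check the Cyp26-deficient label. The other member of the family, cyp26b1, had 643 in Cyp26-deficient embryos, against 933 in WT embryos, within 2-fold at -0.54. The increases held along the whole of both genes: the 7 exons of the main cyp26a1 transcript were 9.38- to 12.4-fold higher, the 7 exons of cyp26c1 were all at least 6.88-fold higher, and the 6 exons of the main cyp26b1 transcript stood at 0.594 to 0.841 of the WT level. Against the WT control of the crg comparison the log2 fold changes were 2.62 for cyp26a1 and 3.38 for cyp26c1.

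The genes dhrs3a and dhrs3b encode retinaldehyde reductases, which turn retinal back into retinol and so limit RA synthesis. dhrs3a had 224 normalized counts in Cyp26-deficient embryos, against 87.6 in WT embryos, a log2 fold change of 1.35 (1.06 to 1.67). dhrs3b had 568, against 226, or 1.32 (1.14 to 1.52). The WT control of the crg comparison held more of both, so that with it the values were 0.16 and 0.43. The RA-synthesizing dehydrogenases stayed within 2-fold, with log2 fold changes of 0.50 for aldh1a2 and -0.48 for aldh1a3. Among retinoid carriers, rbp2a, a cellular retinol-binding protein gene of the gut, was lowest, with 116 normalized counts in Cyp26-deficient embryos, against 489.8 in WT embryos (-2.07, -2.30 to -1.86), and it had the same size of decrease against the other WT control (-2.11). The cellular RA-binding protein gene crabp1a was lowered to 127, against 283 in WT embryos (-1.15), but the other WT control held 113 and gave 0.17. rdh5, a retinol dehydrogenase of the visual cycle, had a log2 fold change of -1.49, and rbp7a and rbp7b had -1.31 and -1.25 at low counts. In the list of RA synthesis, breakdown and binding as a whole, 4 of 29 genes were raised and 5 lowered, with a median of 0.034 against -0.034 over all genes, and against the other WT control 3 were raised and 10 lowered, with a median of -0.28.

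**Figure D2:**
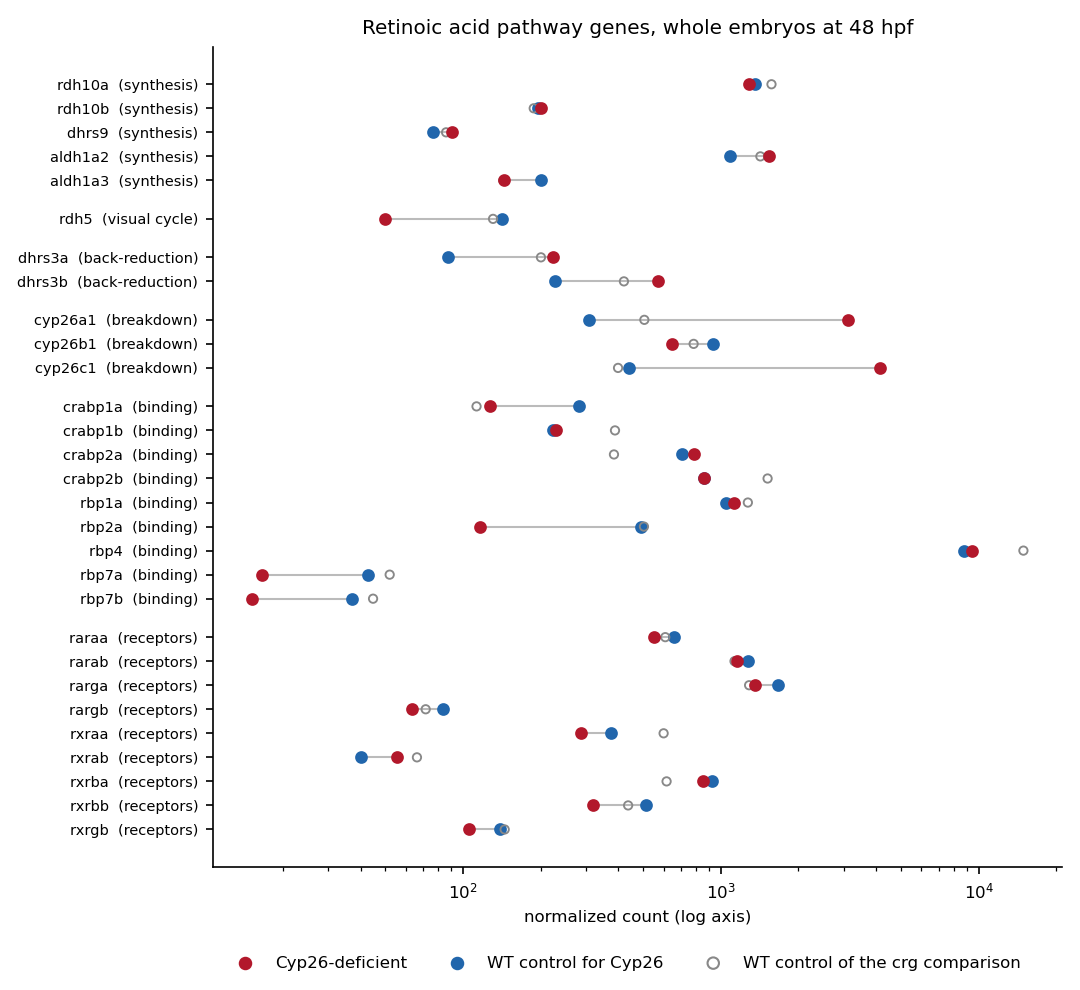
Normalized counts (horizontal log axis) of RA pathway genes, ordered by role, in the Cyp26-deficient library (red), its WT control (blue) and the WT control of the crg comparison (open grey). cyp26a1 and cyp26c1 stand 10.1-fold and 9.48-fold above their own control, dhrs3a and dhrs3b stand above it but near the open grey point, and the receptors lie close together.

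None of the 24 receptor and cofactor genes tested was past 2-fold against their own WT control, while 1, rxraa at -1.06, was lowered against the other one. The receptor genes ran from -0.68 for rxrbb to 0.45 for rxrab, and rarab, the RAR gene used in the study's binding assays, had 1152 normalized counts in Cyp26-deficient embryos, against 1277 in WT embryos (-0.15). The list's median was -0.17, which became 0.069 against the other WT control and 0.089 under scaling by total counts. rxrab and rarab stood at -0.25 and 0.029 with the other control. In the list of genes known to respond to RA, cyp26a1, dhrs3a, hoxa4a and hoxb1a were raised (14.3%, against 3.50% of all genes). Of its 28 genes 0 were lowered, and the median was 0.40, or 0.57 against the other WT control.

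Hox genes, which set positional identity along the body axis, differed by paralog group. Of the 18 genes of groups 1 to 5 tested, 4 were raised and 0 lowered more than 2-fold, 16 had a positive log2 fold change, and the median was 0.72. Of the 13 genes of groups 6 to 9, 0 were past 2-fold and the median was 0.16. Of the 18 genes of groups 10 to 13, 0 were raised and 6 lowered, 2 had a positive value, and the median was -0.75. hoxc1a had 249.9 normalized counts in Cyp26-deficient embryos, against 82.1 in WT embryos (1.59, 1.30 to 1.92), and hoxa4a, hoxb1a and hoxc5a had 1.48, 1.30 and 1.28. At the other end, hoxc13b had 25.7 in Cyp26-deficient embryos, against 72.8 in WT embryos (-1.47). hoxa13b, hoxb13a, hoxc12b, hoxc13a and hoxa13a, which are used in the tail and the fin fold, had -1.37, -1.23, -1.08, -1.06 and -1.02. The exceptions among posterior genes were hoxd13a (0.42, -0.097 to 0.97) and hoxa11a (0.67, -0.32 to 1.88), both with intervals that include 0 and with values of -0.95 and -0.18 against the other WT control. With the other WT control the medians of the 3 groups were 1.05, 0.13 and -1.11, and hoxc5a was within 2-fold at 0.18.

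**Figure D3:**
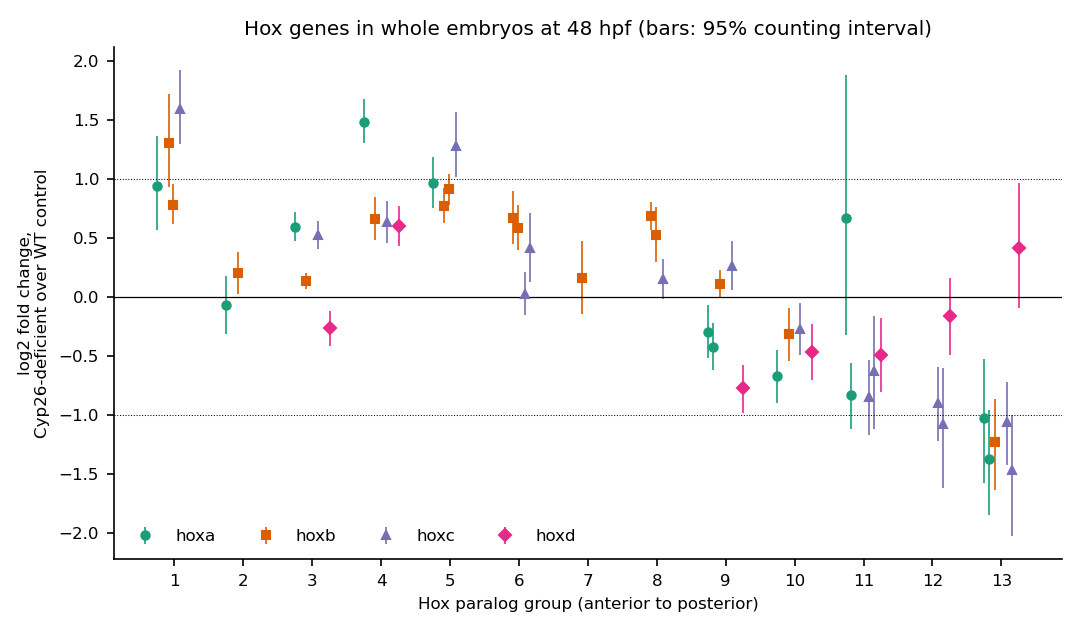
Log2 fold change (Cyp26-deficient over WT control, vertical axis) of each Hox gene tested by paralog group (horizontal axis, anterior to posterior), with symbols for the clusters and bars for the 95% counting interval. Values lie mostly above 0 in groups 1 to 5 and mostly below 0 in groups 10 to 13, with medians of 0.72 in groups 1 to 5 and -0.75 in groups 10 to 13.

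Inflammatory and immediate early genes formed the list with the highest median. Of 36 genes tested, 14 were raised and 0 lowered more than 2-fold (38.9%, against 3.50% of all genes), and the median was 0.72. The list had 59 genes in the data, and those not tested were below the limit on counts. il1b, which encodes the cytokine interleukin 1 beta, had 78.1 normalized counts in Cyp26-deficient embryos, against 13.2 in WT embryos (2.48, 1.84 to 3.38). socs3a, a feedback inhibitor of cytokine signalling, had 233, against 42.6 (2.42), and its copy socs3b and the transducer stat3 had 1.09 and 1.06. Of 8 fos and jun genes, which encode AP-1 transcription factors, 5 were raised and 0 lowered, with a median of 1.68. Against the other WT control 3 of the 8 were raised and 1 lowered, with a median of 0.75. fos, which is not in the list of 36, had 317 in Cyp26-deficient embryos, against 58.1 in WT embryos (2.43). fosl1a, also outside the list, had 2.15. junba and junbb had 2.29 and 1.71, and fosb alone was negative at -0.82. Against the other WT control 8 of the 14 genes of the list stayed past 2-fold, among them junba at 2.16 and socs3a at 1.49. stat3 of the list was within 2-fold there at 0.50, as was fos, outside the list, at 0.69. il1b, 1 of the 8, had 2 counts in that control, and it met the limit on counts through the Cyp26-deficient library. irg1l, ptgs2b, b2m and egr1 did not keep their sign: their values were 2.20, 1.67, 1.85 and 1.43 with their own control, and -1.08, -1.55, -0.58 and -0.33 with the other. The list's median with that control was 0.28.

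Of 34 macrophage and neutrophil genes, 4 were raised (11.8%, against 3.50% of all genes) and 0 lowered, while the median was 0.086. The 4 were mmp9, il1b, mmp13a and cebpb (1.04, and 0.76 with the other WT control). With that control 4 of the 34 were raised and 4 lowered, with a median of -0.088. mmp9, which encodes a matrix-degrading gelatinase of leukocytes and wounded epithelium, had 1620.4 normalized counts in Cyp26-deficient embryos, against 151 in WT embryos, a log2 fold change of 3.41 (3.21 to 3.64). The collagenase gene mmp13a had 641, against 166 (1.94). timp2b, which encodes an inhibitor of such proteases, was raised with them at 1.46, and had 0.95 with the other WT control. The complement genes, most of them made in liver, held 6 raised and 0 lowered of 23, where 3.50% of all genes were raised. They were led by C2 (4 of 4) with 114 in Cyp26-deficient embryos, against 10.8 in WT embryos (3.28, 2.62 to 4.29). Their median was 0.47, which became 0.050 against the other WT control. Genes with a name such as C2 (4 of 4) share it with other genes in the annotation used. How alike such genes are, and whether reads were divided between them, was not tested.

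The matrix and chaperone genes fn1b and hsp47 were among the largest increases in amount of genes past 2-fold, but their WT controls disagreed. hsp47, the collagen chaperone, had 5818 normalized counts in Cyp26-deficient embryos, against 628 in WT embryos (3.21), and the WT control of the crg comparison had 3759. fn1b, a fibronectin gene, had 16045 in Cyp26-deficient embryos, against 4684 in WT embryos (1.78) and 13086 in the other WT control. With that control the values were 0.63 and 0.29, both within 2-fold.

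The actinodin genes of the fin fold and a set of skeletal genes (col10a1, matn1 and others) were lowered with either control. The actinodin genes encode the fibrous proteins of the actinotrichia, the fine rods that stiffen the larval fin fold, and all 4 were lowered more than 2-fold. and2 had 906 normalized counts in Cyp26-deficient embryos, against 8721 in WT embryos, a log2 fold change of -3.26 (-3.34 to -3.19). and3 had 278, against 2433 (-3.13), and1 had 1136, against 4783 (-2.07), and and4 had 30.2, against 143 (-2.20). Against the other WT control the 4 values ran from -4.91 for and2 to -2.94 for and4. In the list of pectoral and median fin genes, 0 of 53 were raised and 5 lowered, with and1, and2, and3, hoxa13a and hoxa13b lowered and a median of -0.27, so that most fin patterning genes of the list stayed within 2-fold. With the other WT control 3 of the 53 were raised and 14 lowered, with a median of -0.55.

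Among skeletal genes, col10a1, a collagen gene of hypertrophic cartilage and bone-forming cells, had 121 normalized counts in Cyp26-deficient embryos, against 940.1 in WT embryos (-2.94, -3.16 to -2.75). The fibrillar collagen gene col5a2b and matn1, which encodes a cartilage matrix protein, had -2.86 and -2.52. PANX3 and IFITM5, genes of bone and cartilage cells in mammals, had -2.87 and -2.43, from 2.52 and 13.1 normalized counts in Cyp26-deficient embryos, against 24.8 and 75.2 in WT embryos. The cartilage gene ucmab and the main collagen gene of skin and bone, col1a1a, were lowered less, at -1.47 and -1.05. The matrix genes vcanb (versican), thbs4a and fap had -1.67, -2.01 and -1.37. All of these were also lowered more than 2-fold against the other WT control, with values from -4.86 for col10a1 to -1.27 for ucmab. Over whole lists few genes were past 2-fold against their own control: 1 of 73 pharyngeal arch and cartilage genes was raised and 3 were lowered (median -0.23), and 0 of 54 collagen genes were raised and 4 lowered (median -0.29). The other WT control gave more, as it did over all genes (1863 of 19888 lowered). With it 13 of the 73 pharyngeal arch and cartilage genes were lowered (median -0.38) and 26 of the 54 collagen genes (median -0.99).

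Against their own WT control, many genes of the retina and photoreceptor list and of the lens crystallin list were lowered. The libraries hold whole embryos, so any expression of these genes outside the eye is counted too. In the list of retina and photoreceptor genes, 0 of 49 were raised and 14 lowered (28.6%, against 2.59% of all genes), with a median of -0.42. rho, the rod opsin gene, had 8.06 normalized counts in Cyp26-deficient embryos, against 103 in WT embryos (-3.52, -4.52 to -2.92). gnb3a, a transducin subunit gene of cones that is not in the list of 49, had 28.7, against 283 (-3.26). The photoreceptor genes rcvrna and sagb had -1.46 and -1.05, and the ultraviolet opsin gene opn1sw1 had 1 count in Cyp26-deficient embryos against 7 in WT embryos. Transcription factors of retinal cells were lowered as well: pou4f2 of ganglion cells had 166 in Cyp26-deficient embryos, against 713 in WT embryos (-2.09), and otx5, vsx1 and crx, of photoreceptors and bipolar cells, had -2.06, -1.81 and -1.65. These 4 factors were within 2-fold with the other WT control, at -0.90, -0.67, -0.77 and -0.85, and pde6h had 15.6 normalized counts in Cyp26-deficient embryos, 41.1 in their WT control and 3.58 (2 counts) in the other. With that control 9 of the 49 genes were raised and 16 lowered, and 8 of the 14 lowered genes stayed lowered. The list's median there was 0.013.

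Of 35 lens crystallin genes, 0 were raised and 17 lowered, and their median of -0.99 was the lowest of all lists. The decrease was uneven between subfamilies. Of 20 gamma M crystallins 16 were lowered, with a median of -1.26, while 1 of 12 alpha and beta crystallins was, with a median of -0.46. The lowest was crygm2d11, with 284 normalized counts in Cyp26-deficient embryos, against 837 in WT embryos (-1.56, -1.71 to -1.41). Gamma M crystallins are near-identical copies, so their single values are uncertain, and summed over the 20 genes they took 0.0899% of the counts in Cyp26-deficient embryos and 0.167% in WT embryos. Both rows named crygm2b were at 0 counts in the WT control of the crg comparison, so that their decrease of -1.04 and -1.22 did not hold there. Among other lens genes 3 of 25 were lowered, among them hsf4, a heat shock factor of lens fibre cells, at -1.20, and -0.89 with that control.

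**Figure D4:**
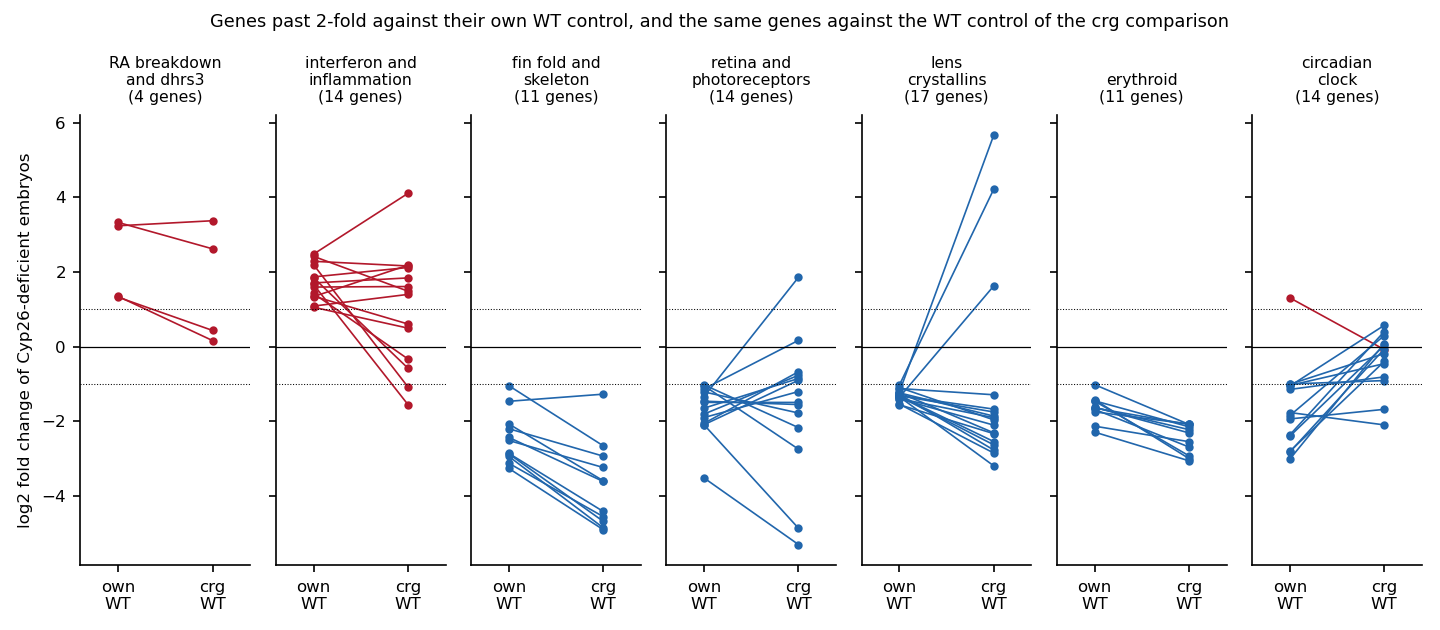
Log2 fold change of Cyp26-deficient embryos over their own WT control (left point of each line) and over the WT control of the crg comparison (right point), for the genes of 7 groups that were past 2-fold in the main comparison (red raised, blue lowered). Lines of the erythroid group and, except for ucmab, of the fin fold and skeleton group end further below 0, those of the clock group end above -1 except for nfil3-6 and aanat2, and crygm2b and crygm2a of the lens cross to positive values (both crygm2b rows had 0 counts in that control).

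Erythrocyte genes, the globins above all, were lowered. Of 48 erythroid genes, 0 were raised and 11 lowered (22.9%), with a median of -0.32. The 8 globin genes named as such took 0.223% of all counts in Cyp26-deficient embryos, 0.566% in WT embryos and 0.839% in the WT control of the crg comparison. hbae3, an embryonic alpha globin, had 11939.5 normalized counts in Cyp26-deficient embryos, against 37088 in WT embryos (-1.64, -1.66 to -1.61), and the largest decreases were in hbbe2 (-2.29) and hbz (-2.13). The haem synthesis gene alas2 and the red cell anion exchanger gene slc4a1a had -1.46 and -1.45. gata1a, the transcription factor of the lineage, was within 2-fold, with 126 in Cyp26-deficient embryos, against 193 in WT embryos (-0.61, and 0.23 with the other control). All 11 genes were lowered more than 2-fold against the other WT control too. Globin copies share sequence, and the division of reads between them is uncertain.

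In skeletal muscle, the genes of the fast contractile apparatus had a median of -0.56, with 1 of 59 raised, 5 lowered and 48 below 0. Scaled by total counts the median was -0.31, where that of all genes was 0.22. pvalb1, the calcium-buffering parvalbumin of fast fibres, had 35284 normalized counts in Cyp26-deficient embryos, against 90659.8 in WT embryos (-1.36), the largest decrease in amount of any gene past 2-fold. mybpc1, pvalb3 and myhb had -1.46, -1.26 and -1.21, and tcap, a sarcomere cap protein, was the 1 raised gene at 1.44. ankrd1b, a stretch-responsive gene of striated muscle, had 84.1 in Cyp26-deficient embryos, against 633 in WT embryos (-2.90). The mitochondrial creatine kinase gene CKMT2 (1 of 2) and the adenine nucleotide translocator gene slc25a4 had -2.52 and -1.44. Slow muscle and myogenic genes had a median of 0.038, with 1 of 42 raised and 1 lowered.

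The study's interest was in the heart, and cardiac genes were mostly within 2-fold in whole embryos against their own WT control. Of 24 cardiac transcription factor genes 1 was raised and 0 lowered (median 0.001). The raised gene was gata5, with 489.7 normalized counts in Cyp26-deficient embryos, against 223 in WT embryos (1.13), but 610.4 in the other WT control (-0.32). Chamber genes went both ways, with 2 of 35 sarcomere and chamber genes raised, 3 lowered and a median of -0.075. Against the other WT control 6 were raised and 9 lowered, with a median of -0.55. vmhc, the ventricular myosin heavy chain, had 260.5 in Cyp26-deficient embryos, against 689 in WT embryos (-1.40, -1.56 to -1.25), and the atrial myosin heavy chain gene myh6 had 318, against 153 (1.05, 0.82 to 1.29). Against the other WT control vmhc had -2.81 and myh6 -0.37, so the increase of myh6 depended on the control. mb (myoglobin) had -1.72, and -0.90 with the other control. myl7, expressed in all cardiomyocytes, was within 2-fold at -0.43, as were nkx2.5 (0.58, 0.022 to 1.21), hand2 (0.12), gata4 (0.81), tbx1 (-0.21), mef2cb (-0.31) and ltbp3 (-0.41). Against the other WT control myl7 was lowered past 2-fold at -1.83, and nkx2.5 and hand2 were within it at -0.43 and -0.86. Of the outflow tract and smooth muscle genes, MYOCD, the myocardin coactivator, had 1.23, and -0.090 with the other control, and elna, an elastin gene, had -1.01. ripply3, the corepressor gene that the study followed, had 16 counts in Cyp26-deficient embryos against 3 in WT embryos. This was too few for ripply3 to be among the genes tested. By RT-qPCR the paper reports increased ripply3 in Cyp26-deficient whole embryos and in sorted nkx2.5:ZsYellow+ cells. In the series' sorted-cell libraries ripply3 had 130 counts in Cyp26-deficient cells against 8 in WT cells, a log2 fold change of 3.68. hdac1 was within 2-fold in whole embryos (-0.35, and 0.50 with the other control).

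Neural genes showed few calls against their own WT control. They showed many more against the other one, where calls were also more frequent over all genes (2747 of 19888 raised). Of 46 neuron differentiation and synapse genes 0 were raised and 1 lowered against their own control, with a median of -0.32. That median turned to 1.20 against the other WT control, with 28 genes raised. The midbrain and hindbrain list had 16 of 29 genes raised there (median 1.11, in place of 0.016), and the forebrain list 11 of 35 (median 0.44, in place of -0.35). The lowered gene was neurod2, a factor of maturing neurons, with 5.04 normalized counts in Cyp26-deficient embryos, against 34.9 in WT embryos (-2.57). In the forebrain list the related genes neurod6a and neurod6b were lowered, at -1.80 and -1.69, and stayed so with the other control (-2.15 and -2.05). In the midbrain and hindbrain list 3 of 29 genes were raised (10.3%, against 3.50% of all genes) and 1 lowered. The raised genes were hoxb1a, atoh1b and atoh1a, proneural factors of the rhombic lip and the ear in the case of the atoh1 genes. The lowered gene of that list was barhl1a, with 210 normalized counts in Cyp26-deficient embryos, against 459 in WT embryos (-1.13, and 0.001 with the other control). atoh1b had 183 in Cyp26-deficient embryos, against 69.7 in WT embryos (1.38). In the Notch list 4 of 45 genes were raised (8.89%, against 3.50% of all genes) and 0 lowered. Of the 45, 39 were above 0, and the median was 0.36, or 0.92 against the other control. The 4 were her4.5 (1.14), her2 (1.08), notch1a (1.03) and her4.4, which was just past 2-fold. Reads of her4.4 may be shared with the other her4 copies. The notch1a row covers only 248 bases of exon, so its value may not stand for the whole gene. nes, the intermediate filament of neural progenitors, had 1.05. In the ear list oc90, which encodes an otoconial protein, was raised to 175, against 48.8 in WT embryos (1.82), and pou4f3 of hair cells was lowered (-1.90). prl, the pituitary hormone prolactin, had 374 in Cyp26-deficient embryos, against 80.6 in WT embryos (2.20, 1.92 to 2.53), and 1.70 against the other control.

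Circadian clock genes were lowered against their own WT control, and most of these decreases were not found with the other one. Of 42 genes tested, 1 was raised and 13 lowered, with a median of -0.68. per2, a clock gene that light induces in zebrafish, had 224 normalized counts in Cyp26-deficient embryos, against 1818 in WT embryos (-3.02), and 211 in the other WT control. cry1a, also induced by light, had 204 in Cyp26-deficient embryos, against 1449 in WT embryos (-2.83) and 213 in the other WT control. per1b, cry5, cry-dash and nr1d1 had -2.37, -2.40, -1.85 and -2.81, while cry2a was raised at 1.31. With the other WT control those values were 0.40, 0.031, 0.30, -0.40 and -0.078, the list's median was -0.071, and 2 of the 13 lowered genes, nfil3-6 (-2.10) and aanat2 (-1.68), were still past 2-fold. For per2, cry1a, per1b, cry5, cry-dash, nr1d1 and cry2a the Cyp26-deficient library thus lay nearer to the WT control of the crg comparison than to its own. With 1 library each, a difference between the controls cannot be told apart from a difference between the pairs. The hour of collection is not given in the sources used here, and its part in these values was not tested. lonrf1l followed the same pattern, with 185 in Cyp26-deficient embryos, 2102 in their WT control and 141 in the WT control of the crg comparison.

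Of 57 liver and plasma protein genes 2 were raised and 6 lowered against their own WT control (median -0.16). With the other WT control 4 were raised and 23 lowered (median -0.78). tfa, the iron carrier transferrin, had 13944 normalized counts in Cyp26-deficient embryos, against 33513 in WT embryos (-1.27). hpdb, of tyrosine breakdown, and the plasma protein genes vtnb and apoc2 had -2.29, -1.46 and -1.25. The raised genes were SERPING1 (1.20), an inhibitor of complement, and cyp2p6 (1.06), both within 2-fold with the other control (0.85 and 0.49). soat2, a cholesterol-esterifying enzyme of gut and liver, had the largest decrease of any gene at more than 10 normalized counts in both libraries, with 10.6 in Cyp26-deficient embryos, against 212 in WT embryos (-4.20, -5.04 to -3.69), and -3.84 with the other control. Yolk protein genes went both ways, with vtg1 at 3.36 and vtg7 at -2.79, although the gene value of vtg1 differed from the sum of its exons.

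In the hatching gland list 4 of 12 genes were raised (33.3%, against 3.50% of all genes) and 0 lowered, with a median of 0.33. he1a, the hatching enzyme that dissolves the chorion, had 31123 normalized counts in Cyp26-deficient embryos, against 15002 in WT embryos (1.05) and 7262 in the other WT control. The protease genes wu:fa26c03 and ctsl1b had 1.46 and 1.25, and cap1 had 1.57, and 0.56 with the other control. By amount the largest increase of any gene past 2-fold was in ctsl1a, a cathepsin gene of the yolk syncytial layer and gut. It had 37917 normalized counts in Cyp26-deficient embryos, against 16168 in WT embryos (1.23). psap, a lysosomal saposin precursor, followed with 28165, against 10116 (1.48). Both were within 2-fold with the other control (0.38 and 0.95).

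Cytochrome P450 genes other than cyp26 held 11 raised and 2 lowered of 61 (18.0% raised), with a median of 0.35 that was -0.20 with the other WT control. cyp17a2 and cyp21a2, of steroid synthesis, had 59.5 and 68.0 normalized counts in Cyp26-deficient embryos, against 9.30 and 24.0 in WT embryos (2.55 and 1.46). cyp2aa9 and cyp2aa8, of a family expanded in fish, had 1.70 and 1.61, and cyp3c1l2 had 2.37, on 8 counts in WT embryos and 4 in the other WT control. These 5 stayed past 2-fold with the other control, where cyp17a2 and cyp21a2 had 7 and 6 counts. Of all 11 raised genes of the list, 7 did. cyp17a2 and cyp3c1l2 met the limit on counts through their level in the Cyp26-deficient library. Of 370 solute carrier genes 15 were raised and 8 lowered, close to the share over all genes, and the largest were the riboflavin transporter gene slc52a3 (2.56) and the monocarboxylate transporter genes slc16a9a (2.26) and slc16a9b (1.97). The potassium channel copies named KCNJ1, which mark ionocytes in zebrafish skin, held 5 raised of 6 (median 1.53, or 0.53 against the other control). DUOXA2, the maturation factor of the dual oxidase that makes peroxide for thyroid hormone and in epithelia, had 101 in Cyp26-deficient embryos, against 11.6 in WT embryos (3.02, 2.37 to 3.99).

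Signalling lists held few genes past 2-fold against their own WT control, with 1 large change in the FGF list. fgf19, a ligand of the eye, brain and endoderm, had 81 counts in Cyp26-deficient embryos against 4 in WT embryos (3.35, 2.31 to 5.63). It met the limit on counts through the Cyp26-deficient library, and had 1.83 with the other WT control. The list of 41 genes otherwise held 0 raised and 2 lowered. In the Wnt list 4 of 66 genes were raised (6.06%, against 3.50% of all genes), led by wnt3a (1.26, and 0.82 with the other WT control) and wnt10b (1.23). sp5l, a Wnt target, was lowered (-1.83) but not with the other control (0.30). In the Hedgehog list 0 of 28 genes were raised and 1 lowered. cbx7a, a Polycomb subunit gene, was raised to 369, against 54.2 in WT embryos (2.74).

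Several groups stayed near the median of all genes against their own WT control. DNA replication and mitosis genes had 0 of 80 raised and 1 lowered (median 0.057). The lowered gene was spc24, an uncertain value, since its exon values in the WT library summed to 0. Melanophore genes had 0 of 25 raised and 1 lowered (median -0.16), and xanthophore and iridophore genes had 0 of 28 past 2-fold (median -0.090), in which the purine synthesis gene paics and the pteridine synthesis gene gch2 had -0.13 and -0.31. With the other control those medians were 0.19, -0.45 and -0.56. Neural crest specifiers held 1 raised and 2 lowered of 30, and endothelial and arch artery genes 1 raised and 0 lowered of 41. Ribosomal protein genes were shifted as a block without reaching 2-fold: 0 of 81 were past it, 80 of 81 were below 0, and the median was -0.63. Scaled by total counts the median was -0.37, where that of all genes was 0.22. The translation factor gene eef1g was lowered with them at -1.28.

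Heat shock and unfolded protein response genes held 4 raised and 3 lowered of 58 (median 0.096). The cytosolic chaperone gene hsp90aa1.2 had 2215 normalized counts in Cyp26-deficient embryos, against 620.0 in WT embryos (1.84), and sesn2, a stress-induced gene, had 1.26. The metal-binding metallothionein gene mt2 was lowered to 137, against 315 in WT embryos (-1.20) and 1434 in the other WT control. hsf2, a heat shock factor, was lowered at -1.27 but had 0.46 with the other control, and the 4 raised genes were all within 2-fold with it.

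Epidermal genes stayed close to WT against their own control only. Of 73 genes of epidermis, keratins and ionocytes 3 were raised and 0 lowered, with a median of 0.11, but the median was -0.91 with the other WT control. krt4, a main keratin of the outer skin layer, had 254290.0 normalized counts in Cyp26-deficient embryos, 306671 in their WT control (-0.27) and 604854 in the WT control of the crg comparison (-1.25). The ionocyte cotransporter gene slc12a10.2 was raised to 339, against 118 in WT embryos (1.52), while the other control held 381. Kidney genes held 3 raised and 1 lowered of 45, among them slc12a3, the salt cotransporter gene of the distal tubule, at 1.13 and 3.39 with the 2 controls.

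In the glia list 2 of 25 genes were raised and 1 lowered, with a median of 0.22, or 0.82 against the other control. mpz, a myelin protein gene, had 68.5 normalized counts in Cyp26-deficient embryos, against 26.3 in WT embryos (1.35, 0.83 to 1.97), and 1.63 with the other control. Among ear and lateral line genes, 2 of 56 were raised and 5 lowered, and s100t, a calcium-binding protein gene of hair cells in zebrafish, had 125 in Cyp26-deficient embryos, against 401 in WT embryos (-1.68). Of 19 hypothalamic and pituitary genes prl was raised and trh, the thyrotropin-releasing hormone gene, was lowered (-1.06, and 0.043 with the other control). The pancreas list held 2 raised and 0 lowered of 31, the thyroid and pharyngeal endoderm list 1 raised (DUOXA2) and 0 lowered of 26, and the notochord list 0 raised and 1 lowered of 36. The list of voltage-gated ion channels also took in the KCNJ1 copies, which are not voltage-gated. Of its 136 genes 7 were raised (5.15%, against 3.50% of all genes), 5 of them KCNJ1 copies. Lowered were 3 (2.21%, against 2.59%). Of 18 histone genes 1 was raised and 1 lowered. The medians with the other WT control were 0.98 for the hypothalamic and pituitary list, 0.59 for the pancreas list and 0.84 for the ion channel list.

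**Figure D5:**
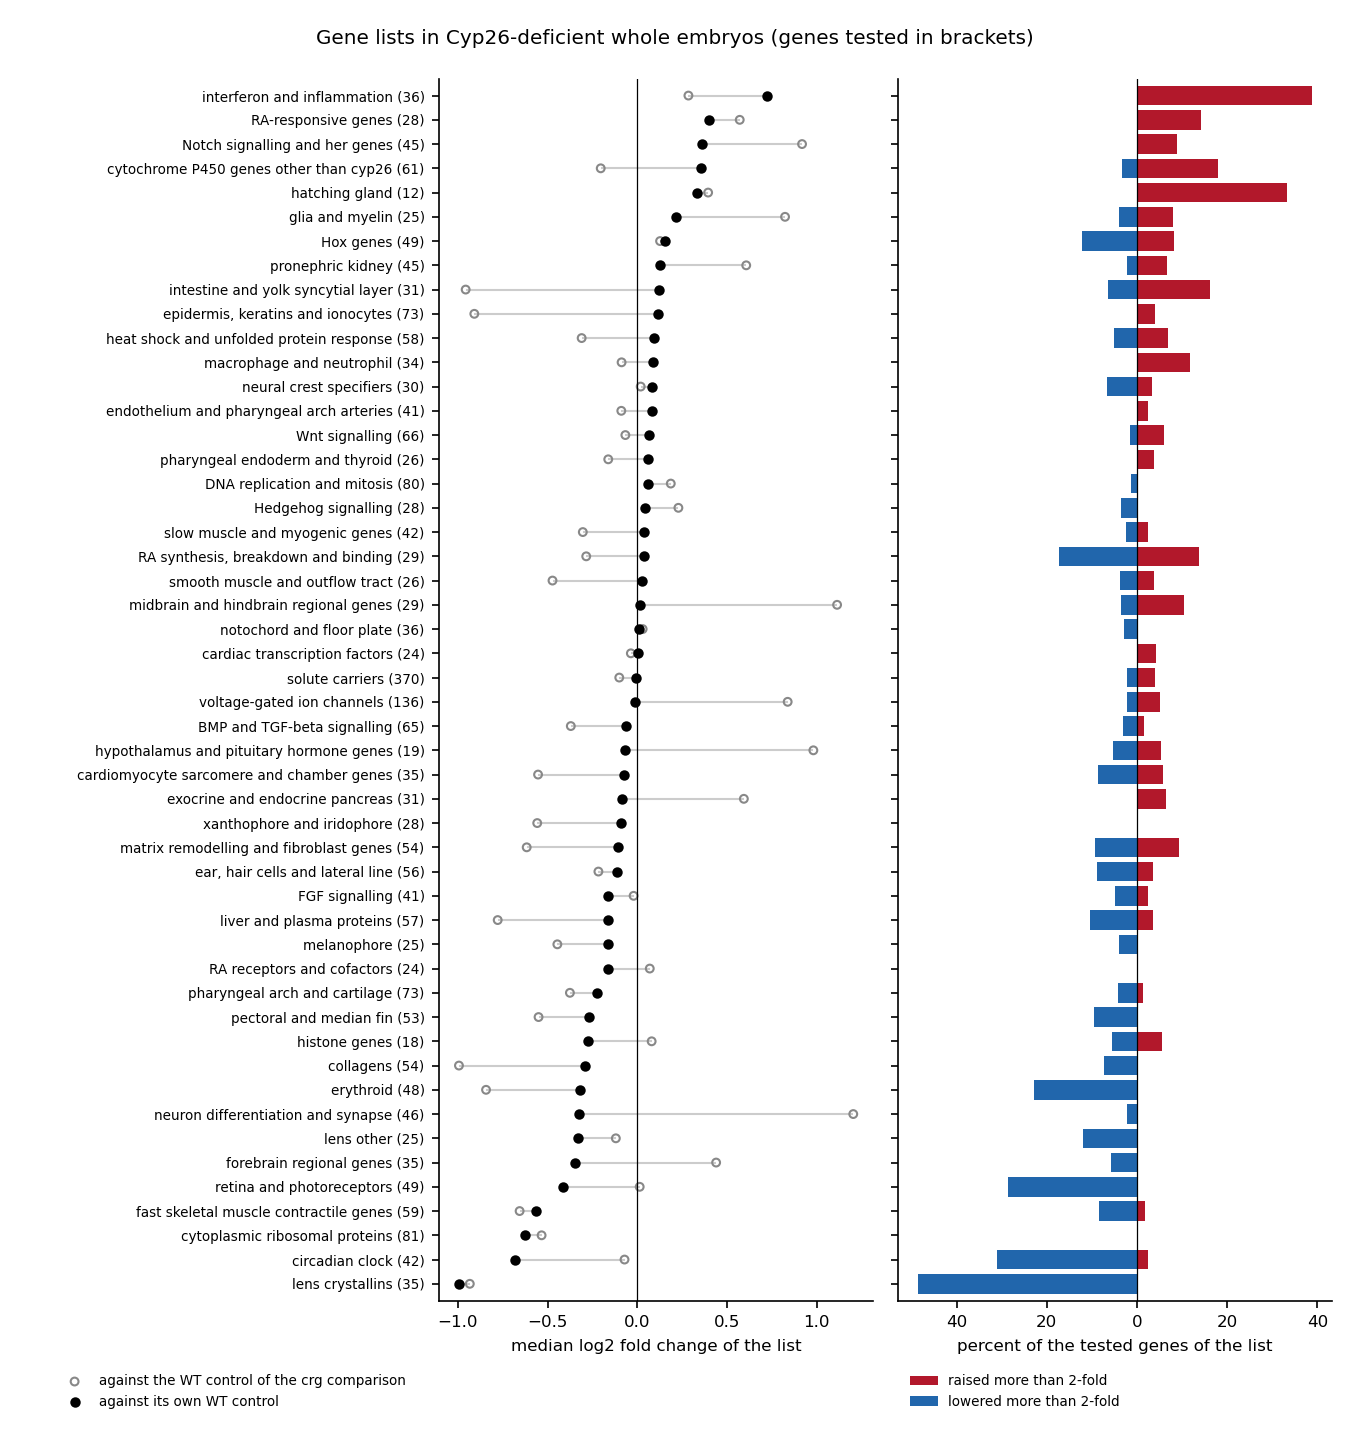
Left, median log2 fold change of gene lists in Cyp26-deficient embryos against their own WT control (filled) and against the WT control of the crg comparison (open). Right, percent of each list's tested genes raised (red) or lowered (blue) more than 2-fold. Inflammation genes are highest at 0.72 and lens crystallins lowest at -0.99, and the neuron list lies on opposite sides of 0 with the 2 controls.

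For some of the most extreme values the gene and its exons disagreed. For 526 of the genes tested (2.64%) the gene value differed from the sum of its exon values by more than 1 count and 5% in at least 1 library of the pair, and these included 19 of the raised and 46 of the lowered genes. The largest decrease of all was in spc24, a kinetochore gene, with 3 counts in Cyp26-deficient embryos against 216 in WT embryos, but its exon values in the WT library summed to 0, and in sorted cells it had 240 counts in Cyp26-deficient cells against 4 in WT cells. dedd1, olig3 and C1H19orf67, with 0, 0 and 1 counts in Cyp26-deficient embryos against 68, 14 and 40 in WT embryos, were likewise at 0, 0 and 0.241 counts over their exons in WT embryos. Against a limit of 3 counts the levels would be at least 111-fold lower for spc24 and at least 34.9-fold lower for dedd1, but these 4 genes are uncertain. Smaller disagreements of the same kind touched vtg1, rbp7a and atoh1a. At the other end, swsap1 had 39 counts in Cyp26-deficient embryos against 1 in WT embryos; this was at least 8.45-fold higher against 3 counts, and it was -0.43 with the other control. The remaining genes among the 15 largest increases not yet named were chia.4 (3.15) and chia.6 (2.71), which encode chitinases, CD44 (2 of 2) (3.04), gyg2 (2.76), a glycogenin gene, and RP1 (1 of 2) (2.66), each at 5 counts or fewer in WT embryos except chia.6 with 17.

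The Cyp26-deficient nkx2.5:ZsYellow+ cells of the series were sorted at 28 hpf and deposited in a table of their own, so that their values are set beside those of whole embryos without a test. cyp26a1 and cyp26c1 had log2 fold changes of 3.33 and 3.24 in whole embryos and 3.68 and 2.20 in sorted cells. hoxb1a had 1.30 in whole embryos and 2.39 in sorted cells, and and2 had -3.26 and -4.09. mmp9 and il1b, at 3.41 and 2.48 in whole embryos, had 0.40 and 0.11 in sorted cells. Among crg mutant whole embryos at 48 hpf, cyp26a1 and cyp26c1 had -0.15 and 0.60 against the WT control of that pair, hoxb1a had 2.13, mmp9 had 1.02 and and2 had -1.86.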

How the data were processed

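RNA of whole embryos was sequenced single-end and stranded on an Illumina HiSeq instrument and aligned by the authors with Strand NGS to Zv9 (danRer7). The aligner version and the annotation are not given in the sources used here, and the submitters' processing notes name DESeq. The deposited table holds the authors' expected counts per gene and exon, which need not be whole, as named values inside a text field, for each of the 4 whole-embryo libraries. Gene values were rounded, and size factors over the 4 libraries were estimated in DESeq2 (1.42.0, under R 4.3.3) as medians of ratios, and log2 fold changes used normalized counts plus a pseudocount of 1. A gene was called raised or lowered past 2-fold, and where a library had 3 counts or fewer a fold is given as a bound against 3 counts. Intervals are exact Clopper-Pearson at 95% for the ratio of normalized counts, without the pseudocount that the log2 fold changes include. No model was fitted, because each condition has 1 library, and edgeR (4.0.16) was used only for TMM factors. Scripts were tested on simulated data (Python 3.11.15).

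The genes described and the 51 gene lists were chosen with earlier results of these data known, and subgroups of lists (such as gamma M crystallins or Hox paralog groups) were formed after values were seen. Of 2116 list entries 224 matched no gene row. Genes were named by a rule. It took the 15 largest changes in each direction with a gene symbol and an interval past 2-fold. Among genes past 2-fold it took the 10 largest differences in amount in each direction. The rule also took up to 8 members past 2-fold in each direction of each list, RA pathway genes, and genes the study named. CKMT2 (1 of 2), IFITM5, and4, crygm2b, egr1, fos, fosb, fosl1a, gata1a, hoxa11a, hoxd13a, krt4, pde6h, rcvrna, sagb, socs3b and stat3 fell outside it and were chosen after their values were seen. No value column went unused for want of a sample. Alternatives were TMM and total-count scaling, scaling within the pair, other pseudocounts, filters and limits, and the other WT control. Some genes, and lists that turn on them, are not reported here, and sequences are not printed.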

Additional observations from a re-analysis of the deposited data

How the results depend on the processing

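In place of 697 raised and 516 lowered genes, scaling by total counts gave 1345 and 293, so that 82.1% of calls were raised in place of 57.5%. A pseudocount of 10 gave 345 and 320, no filter on low values gave 1747 and 1008, and a mean of at least 50 gave 315 and 296. A limit of 4-fold gave 64 and 82, and requiring the nearer end of the interval past 2-fold gave 196 and 220. The WT control of the crg comparison gave 2747 and 1863. Leaving out genes whose exon sum differed, an alternative chosen after seeing the data, gave 678 and 470. All 51 list medians stayed between the medians of their members' interval ends under TMM factors, the pair's own size factors, the other pseudocounts or a mean of at least 50. With the other WT control 33 of 51 list medians moved, and with total counts 35 of 51. Among named genes past 2-fold the sign turned with the other WT control for MYOCD (-0.090), b2m (-0.58), crabp1a (0.17), cry-dash (0.30), cry2a (-0.078), cry5 (0.031), crygm2a (1.63), both crygm2b rows (4.22 and 5.67, with 0 counts in that control, so that the size depends on the pseudocount), egr1 (-0.33), gata5 (-0.32), hsf2 (0.46), irg1l (-1.08), lonrf1l (0.39), myh6 (-0.37), pde6h (1.86, with 2 counts there), per1b (0.40), per2 (0.083), ptgs2b (-1.55), slc12a10.2 (-0.17), sp5l (0.30), swsap1 (-0.43) and trh (0.043). barhl1a turned as well, from -1.13 to 0.001. Genes within 2-fold, such as nkx2.5, hand2 and rxrab, could turn sign too. With the most abundant exon in place of the gene, opn1sw1 and spc24 had 0.59. Both genes had 3 counts or fewer in Cyp26-deficient embryos, so this value depends on the pseudocount and is no measured increase. The cause of these changes was not tested. No paired analysis was possible because each condition has 1 library. Low counts limit single values most, and CD44 (2 of 2), RP1 (1 of 2), chia.4, cyp3c1l2, fgf19, gyg2, opn1sw1 and swsap1 rest on fewer than 10 counts in WT embryos.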
